A study of Mus musculus with 6 samples.

Results

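The 3 chains of the interleukin-2 receptor (Il2ra, Il2rb and Il2rg) and 4 members of the SOCS family of feedback inhibitors (Cish, Socs1, Socs2 and Socs3) were described in CD4 T cells of the mouse colonic lamina propria. The 7 genes were chosen by name and function, with earlier results of these data known. All 7 were among the 15473 genes of the deposited count table. RNA and T cell receptors of single cells were sequenced from 2 sorted populations. All mice were Foxp3{delta}EGFPiCre/WT and carried R26lsl-tdTomato/wt, with no age or sex given. The Foxp3 locus of 1 allele drives EGFP and Cre, and Cre removes a stop in front of tdTomato, so tdTomato marks cells that expressed Cre and their progeny. The tdTomato+GFP+ gate held cells with both signals, and the tdTomato-GFP- gate held CD4 T cells with neither, which may use the wild-type Foxp3 allele. The counts do not tell transcripts of the modified allele from those of the wild-type allele. A GFP signal comes from the modified allele, so cells of the tdTomato+GFP+ gate expressed that allele. Each gate had 3 biological replicates, hashed with antibody tags and run together on 1 droplet lane (gate and lane cannot be told apart). The labels do not say whether a replicate was 1 animal, and p-values measure the spread between hashed replicates.

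Interleukin-2 binds a receptor built from an alpha chain (Il2ra, CD25), a beta chain (Il2rb) and the common gamma chain (Il2rg). The beta and gamma chains signal through the kinases Jak1 and Jak3 to STAT5, and the alpha chain raises the affinity for the cytokine. Regulatory T cells (Treg) are known for high CD25 and for consuming interleukin-2. Cish, Socs1, Socs2 and Socs3 are induced by cytokine signals and dampen them: Cish and Socs2 are classical STAT5 targets, Socs1 blocks JAK kinases downstream of interferon and common gamma chain receptors, and Socs3 binds gp130 and restrains STAT3 signals of the interleukin-6 family.

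In the GENCODE vM21 annotation of GRCm38 the genes lie on separate chromosomes: Il2ra at chr2:11642807-11693193, Il2rb at chr15:78479256-78495271, Il2rg at chrX:101264378-101268255, Cish at chr9:107296026-107302784, Socs1 at chr16:10782240-10785536, Socs2 at chr10:95385362-95417180 and Socs3 at chr11:117966079-117970047. STAT dimers bind the palindrome TTCNNNGAA, which reads the same on both strands. RefSeq promoter windows (GRCm38.p6, 300 bases, from 250 before to 50 after the transcript start) were found for 5 of the 7 genes. The Cish window held 2 matches and the Socs3 window 1, against 8.30% of 32851 windows with at least 1 match and 0.457% with 2 or more. The windows of Il2ra, Il2rg and Socs1 held none. The stretches are shown because Cish and Socs3 differed in opposite directions between the gates over all cells, Cish only slightly and not in every alternative fit. Socs1 was lower like Socs3 but had no match, and no window was found for Socs2. A link between matches and direction was not tested. Capitals mark the matches, and a match describes letters only. The Cish stretch is chr9:107296654-107296683 on the plus strand, with its first match beginning at the RefSeq start site. The Socs3 stretch is chr11:117969507-117969525 on the minus strand, with its match 154 bases before the RefSeq start site. Both stretches lie inside the GENCODE genes given above, which begin at 107296026 for Cish (plus strand) and 117970047 for Socs3 (minus strand).
Cish: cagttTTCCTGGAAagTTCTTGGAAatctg
Socs3: cagccTTCTTAGAAgggag

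Of 23595 cells, 18874 could be given to a replicate by their hashtag: 10109 tdTomato-GFP- cells (1836 to 5159 per replicate) and 8765 tdTomato+GFP+ cells (1747 to 4610). Summed counts of unique molecular identifiers (UMIs) ran from 7424984 to 23289046 per replicate, with median depths per cell of 3501.5 to 3905. Levels below are in CPM, a gene's UMIs relative to all UMIs of the same cells without hashtags. Foxp3 stood at 178.8 ± 13.4 CPM (SD, n = 3) in the tdTomato-GFP- gate and at 125.7 ± 15.998 in the tdTomato+GFP+ gate. A Foxp3 UMI was found in 21.3% ± 2.09 and 34.1% ± 3.36 of cells. Il17a, a Th17 cytokine, stood at 1726 ± 240 and 10857 ± 1801 CPM. The cells of both gates carried pan-T cell transcripts, with a summed marker level of 4051 and 5161 CPM. A B and plasma cell marker sum ranged from 460 to 1319 CPM over the tdTomato-GFP- replicates and from 147 to 1702 over the others, and its part in the results was not tested. Cell barcodes found in both lanes numbered 174, of which 106 had a replicate in each; 46 of 48 calls on the 7 genes were kept without them.

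With all cells of a replicate summed, Socs2 was higher and Socs1 and Socs3 lower in the tdTomato+GFP+ gate, Cish was slightly higher, and no receptor chain passed the test. edgeR's quasi-likelihood test with Benjamini-Hochberg adjustment called 4 of the 7 genes, 2 in each direction, beside 26.4% of all 11933 genes tested.

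Among the receptor chains, Il2ra stood at 86.5, 95.4 and 88.2 CPM in the 3 tdTomato-GFP- replicates and at 126, 104.2 and 95.8 CPM in the tdTomato+GFP+ replicates. The groups did not overlap, yet the lowest tdTomato+GFP+ replicate lay just above the highest tdTomato-GFP- one. Its log2 fold was 0.26 (SE 0.10, edgeR adjusted p = 0.105), and it passed without tdTomato+GFP+ replicate 3 (log2 0.34, edgeR adjusted p = 0.0295). Il2rb, the signalling chain shared with the interleukin-15 receptor, read 380.3, 354 and 317 CPM against 417, 366 and 299.6 CPM. These values overlapped across their whole range (log2 fold 0.03, SE 0.13, edgeR adjusted p = 0.907). Il2rg, the chain shared with the receptors for the other cytokines of the family, read 838, 846 and 797 CPM against 821, 859.7 and 825 CPM. Its log2 fold was 0.00 (SE 0.05, edgeR adjusted p = 0.992).

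Among the inhibitors, Cish read 203, 211 and 219 CPM in the tdTomato-GFP- replicates and 267, 252 and 232 CPM in the tdTomato+GFP+ replicates. That 1.17-fold difference (log2 0.23, SE 0.07, edgeR adjusted p = 0.0348) did not pass in 4 of the 6 fits that left out a replicate (adjusted p from 0.0977 to 0.128: tdTomato-GFP- replicate 1 or 2, tdTomato+GFP+ replicate 1 or 2), nor in cells with a main hashtag share of at least 0.95 (log2 0.12, edgeR adjusted p = 0.408). Socs1 read 166, 175 and 144 CPM against 71.1, 91.8 and 84.8 CPM. The groups were well apart, and Socs1 was 1.97-fold lower in the tdTomato+GFP+ gate (log2 -0.98, SE 0.11, edgeR adjusted p = 0.000659).

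Socs2 showed the largest difference of the 7 genes over all cells. It read 67.1, 73.0 and 84.7 CPM in the tdTomato-GFP- gate and 203, 208 and 233 CPM in the tdTomato+GFP+ gate, a 2.84-fold higher level (log2 1.51, SE 0.10, edgeR adjusted p = 8.82e-05). Socs3 went the other way, from 210.0, 204 and 205 CPM to 80.4, 90.1 and 94.4 CPM. It was 2.36-fold lower (log2 -1.24, SE 0.06, edgeR adjusted p = 2.38e-05), and its lowest tdTomato-GFP- replicate was above all tdTomato+GFP+ replicates. The values rest on 3227 and 8019 UMIs of Socs2 and on 9291 and 3353 UMIs of Socs3.

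**Figure D1:**
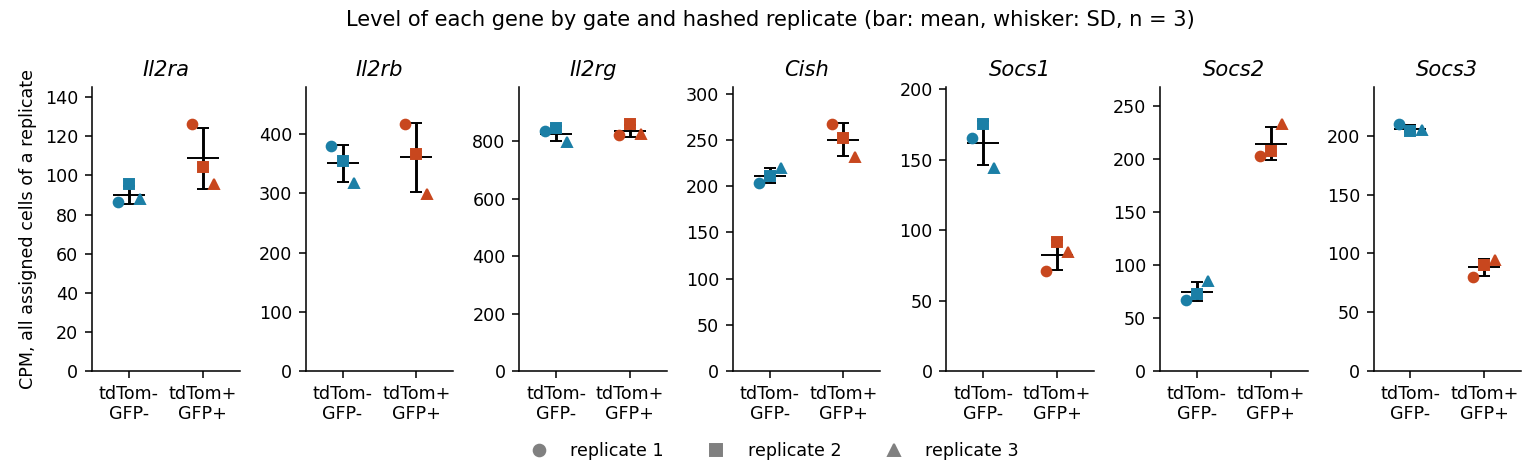
Level of each of the 7 genes in CPM (vertical axes, from 0) in the 3 hashed replicates of each gate (points), with the mean (bar) and SD (whisker). Socs2 is higher and Socs1 and Socs3 are lower in every tdTomato+GFP+ replicate, whereas the Il2rb and Il2rg points of the 2 gates overlap.

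The share of cells with at least 1 UMI gave the same order. With each cell thinned to 2000 UMIs, Socs2 was found in 11.7% ± 0.544 of tdTomato-GFP- cells and 33.3% ± 2.33 of tdTomato+GFP+ cells (SD, n = 3 each). Socs3 was found in 28.0% ± 0.666 and 13.6% ± 0.280, and Socs1 in 23.8% ± 1.74 and 12.9% ± 1.10. Cish was found in 29.9% ± 0.570 and 36.4% ± 1.82, and Il2ra in 13.04% ± 0.685 and 17.0% ± 2.29. For these 5 genes the replicates did not overlap, and the two-sided exact permutation p of each was 0.1, the smallest that 3 against 3 can give. By CPM over all cells, the replicates of 42.9% of all 11933 genes tested did not overlap either. That share was not computed for thinned detection. Il2rb (44.6% and 46.5%, exact p = 0.5) and Il2rg (77.4% and 78.1%, exact p = 0.7) overlapped. Unthinned, Il2ra was seen in 22.1% and 29.1% of cells and Socs2 in 21.6% and 50.3%. In the tdTomato-GFP- gate both genes were lowest in the naive-like cluster 9 among clusters with at least 20 cells in every replicate. At a median of 3519 UMIs, 3.76% ± 1.18 of its cells had an Il2ra UMI and 2.24% ± 0.559 a Socs2 UMI. Thinned, these shares were 2.11% and 0.887%. They are no clean floor for free RNA, since the cluster also held cells with more Il2ra. Its 33 cells with a Foxp3 UMI pooled at 142 CPM of Il2ra and the 670 without at 12.6 CPM. The shares of both genes in the tdTomato-GFP- gate lay above those of cluster 9. The tdTomato+GFP+ gate ran on its own lane, and its cluster 9 held only 6, 20 and 27 cells. Its shares were therefore not set against free RNA. Cluster 9 cells without a Foxp3 UMI pooled at 6.09 CPM of Socs2 in the tdTomato-GFP- gate (670 cells) and 25.8 CPM in the other (45 cells). The part of free RNA in the gate difference of Socs2 was not tested.

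The 2 gates held different cells, and the UMIs of a gene came from different clusters in them. Cluster 5 of the authors' clustering, in which all 10 Treg markers were raised and Klrg1, Tnfrsf9, Itgae and Foxp3 were among the 10 leading genes, held 14.4% ± 1.68 of tdTomato-GFP- cells but 1.84% ± 0.525 of tdTomato+GFP+ cells. Clusters 1, 2, 3, 12 and 13, which carried Th17 markers and are called Th17-like here, held 11.2% ± 1.56 and 65.4% ± 7.39. Cluster 5 gave 31.8%, 40.2% and 43.6% of the Il2ra UMIs in the tdTomato-GFP- replicates, and 2.70% ± 0.577 in the tdTomato+GFP+ gate. Th17-like cells gave 6.62% ± 1.67 of Il2ra UMIs in the tdTomato-GFP- gate and 65.9% ± 6.73 in the tdTomato+GFP+ gate. The near-equal Il2ra levels over all cells were therefore sums over different populations: mostly outside Th17-like cells in the first gate and mostly inside them in the second.

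Socs3 and Socs1 drew on another population as well. Clusters 7 (Tfh-like by its markers) and 9 (naive-like) together held 15.5% ± 2.16 of tdTomato-GFP- cells and 1.85% ± 0.737 of tdTomato+GFP+ cells. They gave 23.3% ± 5.47 of Socs3 UMIs and 18.5% ± 1.84 of Socs1 UMIs in the tdTomato-GFP- gate, against 5.79% ± 2.26 and 3.72% ± 1.78 in the other gate. Of Socs2 UMIs they gave 2.05% and 0.535%. The naive marker sum was 2014 ± 284 CPM over all tdTomato-GFP- cells and 747 ± 51.7 CPM over all tdTomato+GFP+ cells. Th1 (1324 and 498 CPM) and Tfh (640 and 385 CPM) marker sums were also lower in the tdTomato+GFP+ gate. Treg (2603 and 3331 CPM) and Th17 (2549 and 15083 CPM) sums were higher. The part of these cell types in the Socs1 and Socs3 differences was not tested.

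**Figure D2:**
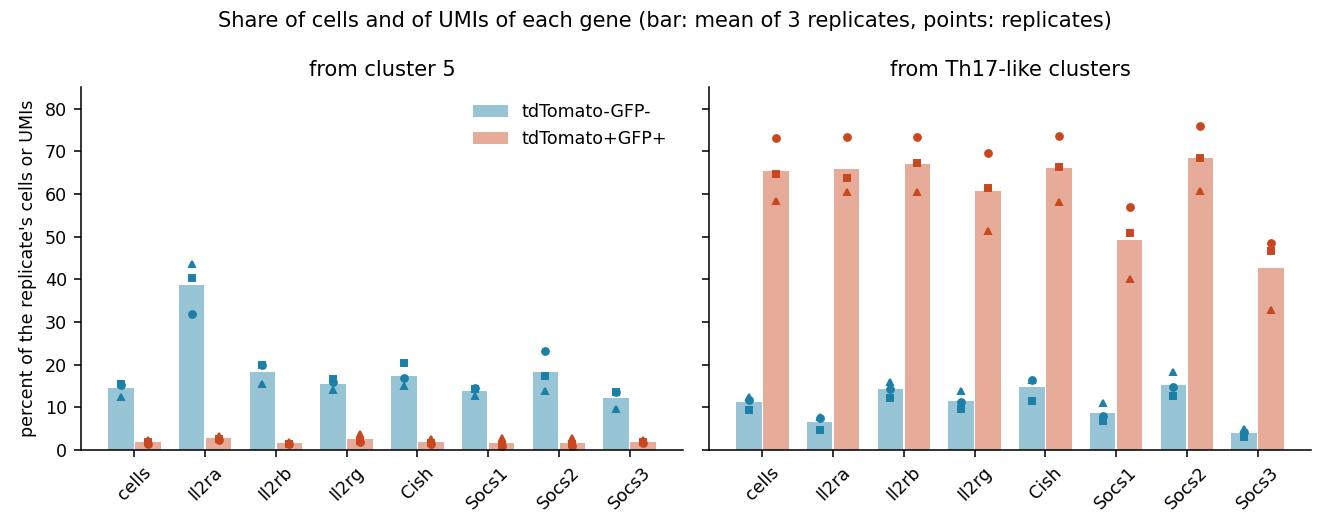
Percent of a replicate's cells, and of the UMIs of each of the 7 genes, that came from cluster 5 and from Th17-like clusters, by gate (bars, mean; points, 3 replicates). Cluster 5 gives 38.5% of Il2ra UMIs from 14.4% of the cells in the tdTomato-GFP- gate, and Th17-like clusters give 65.9% of Il2ra UMIs from 65.4% of the cells in the tdTomato+GFP+ gate.

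When both gates were given the same number of cells per cluster and replicate number, 1 of the 7 genes was called. Socs2 kept a log2 fold of 1.19 (edgeR adjusted p = 0.00103). Socs3 was at a log2 fold of -0.49 (adjusted p = 0.129) and Socs1 at -0.54 (adjusted p = 0.0629), neither past the threshold. Cish changed sign to -0.04 (adjusted p = 0.869), and Il2ra was at 0.34 (adjusted p = 0.234). With 1 cell per receptor clonotype and replicate, the log2 folds were 1.45 for Socs2, -0.92 for Socs3 and -0.56 for Socs1 (edgeR adjusted p = 0.000105, 3.53e-07 and 0.000331), and Cish at 0.25 did not pass (0.0557).

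Th17-like clusters allowed the gates to be compared within a shared cell class. There Il2ra and Socs2 were higher and Socs1 lower in the tdTomato+GFP+ gate, 3 of the 7 genes against 11.2% of 10075 genes tested. Most cells came from clusters 1, 2 and 3 in both gates (2096, 1599 and 1460 tdTomato+GFP+ cells, and 273, 476 and 341 tdTomato-GFP- cells).

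Il2ra read 55.7, 48.4 and 53.5 CPM in Th17-like tdTomato-GFP- cells and 137, 107 and 108.5 CPM in Th17-like tdTomato+GFP+ cells. Every tdTomato+GFP+ replicate was above every tdTomato-GFP- replicate, and the level was 2.15-fold higher (log2 1.11, SE 0.12, edgeR adjusted p = 1.90e-05). The order also held in each of the main clusters: Il2ra averaged 39.8 against 118.7 CPM in cluster 1, 55.8 against 124.0 in cluster 2 and 56.1 against 96.9 in cluster 3, without overlap. With 1 cell per clonotype the log2 fold was 0.93 (edgeR adjusted p = 0.00113). Thinned to 2000 UMIs, 8.23% ± 1.145 and 18.0% ± 2.54 of Th17-like cells had an Il2ra UMI.

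Il2rb in the same cells read 469.7, 468 and 399 CPM against 451, 397 and 339 CPM, with overlapping groups. Its log2 fold of -0.21 did not pass without a block (edgeR adjusted p = 0.304) and passed with the replicate number as a block (log2 -0.21, edgeR adjusted p = 0.00270). Il2rg averaged 846 and 829 CPM (log2 -0.06, edgeR adjusted p = 0.540). Of the 3 receptor chains, only the alpha chain was called in Th17-like cells without the block.

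Socs2 read 85.8, 99.2 and 122 CPM in Th17-like tdTomato-GFP- cells and 228, 229.8 and 265 CPM in Th17-like tdTomato+GFP+ cells (log2 1.23, SE 0.11, edgeR adjusted p = 1.20e-05). Socs1 read 115, 130.1 and 126 CPM against 59.8, 75.4 and 63.6 CPM (log2 -0.91, SE 0.10, edgeR adjusted p = 2.59e-05). Neither gene's groups overlapped. Socs3 was low in Th17-like cells of both gates, at 73.4 ± 4.66 and 61.1 ± 5.93 CPM (log2 -0.29, edgeR adjusted p = 0.0890; with the replicate block -0.30, edgeR adjusted p = 0.0264; at a main hashtag share of at least 0.95, -0.61, edgeR adjusted p = 0.0428). Cish averaged 277 and 270.5 CPM (log2 -0.07, edgeR adjusted p = 0.628). Foxp3 itself stood at 35.4 ± 18.2 CPM in Th17-like tdTomato-GFP- cells and at 144.2 ± 12.2 CPM in Th17-like tdTomato+GFP+ cells, and a Th1 marker sum at 1479 and 440 CPM; their part in these differences was not tested.

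Cluster 5 gave another picture for the receptor chains. There edgeR called Socs1, Socs2 and Socs3, 3 of 7 genes against 3.71% of 6491 tested, in the directions seen over all cells. Only 24, 80 and 58 cells of the tdTomato+GFP+ replicates fell in it, beside 783, 484 and 229 of the tdTomato-GFP- replicates, so its tdTomato+GFP+ values rest on few UMIs.

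Il2ra in cluster 5 read 217, 288 and 355 CPM in the tdTomato-GFP- replicates and 223, 180.4 and 131 CPM in the tdTomato+GFP+ replicates (21, 53 and 32 UMIs). The groups overlapped, with tdTomato-GFP- replicate 1 below tdTomato+GFP+ replicate 1. The log2 fold of -0.68 (SE 0.23, edgeR adjusted p = 0.140) passed with the replicate block (-0.71, edgeR adjusted p = 0.0457) and without tdTomato-GFP- replicate 1 (-0.89, edgeR adjusted p = 0.00527). Il2rb averaged 525 ± 75.4 and 351 ± 133 CPM (log2 -0.61, edgeR adjusted p = 0.122; with the block -0.59, edgeR adjusted p = 0.0217). Il2rg averaged 1043 ± 17.7 and 1231 ± 23.7 CPM (log2 0.30, edgeR adjusted p = 0.229).

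Socs1 in cluster 5 read 190.3, 188 and 167 CPM against 53.0, 64.7 and 98.4 CPM (log2 -1.20, SE 0.20, edgeR adjusted p = 0.00202). Socs2 read 124, 94.9 and 108 CPM against 159, 191 and 258 CPM (log2 1.01, SE 0.18, edgeR adjusted p = 0.00346). Socs3 read 226, 209 and 179 CPM against 106, 119 and 86.1 CPM (log2 -0.92, SE 0.18, edgeR adjusted p = 0.00691). None of the 3 overlapped between gates. Socs2 (0.78) and Socs3 (-0.79) did not pass without tdTomato+GFP+ replicate 3 (edgeR adjusted p = 0.0663 each), and Socs1 (-1.05) did not pass without tdTomato+GFP+ replicate 2 (0.0583). Foxp3 in cluster 5 was at 839.6 ± 65.6 CPM in the tdTomato-GFP- gate and 190.6 ± 33.1 CPM in the tdTomato+GFP+ gate. A Treg marker sum was at 6934 ± 481 and 4740 ± 1396 CPM and a Th2 marker sum at 4812 ± 1777 and 11850 ± 3649 CPM. A Th17 marker sum was at 674 ± 33.3 and 1996 ± 1048 CPM and a naive marker sum at 1463 ± 409 and 677 ± 96.7 CPM, each without overlap, so cluster 5 did not hold the same mix in the 2 gates; the part of these values in the results was not tested.

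The gate difference of Il2ra itself differed between cluster 5 and Th17-like cells. A test of that difference gave a log2 value of -1.70 (SE 0.21, edgeR adjusted p = 1.29e-06), the 1 gene of 7 called against 4.18% of 9316 tested. Socs3 (-0.67, edgeR adjusted p = 0.0687) and Il2rb (-0.41, edgeR adjusted p = 0.184) did not pass. For Socs1 and Socs2 the difference of effects was -0.33 (SE 0.24) and -0.28 (SE 0.20) and did not pass either, so their gate differences could not be told apart between the classes at this precision.

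A further 6 clusters had at least 20 cells in every replicate and were tested one by one. Socs2 was higher in the tdTomato+GFP+ gate in each of them, which with the preceding sets made 9 of 9, with log2 folds from 1.01 in cluster 5 to 2.63 in cluster 7. The 9 sets are not separate tests. They share the same hashed replicates and lanes, and the set of all cells contains the others. Socs2 read 71.6, 80.9 and 97.5 CPM against 140.3, 195 and 194 CPM in cluster 0 (Th2-like; log2 1.17, edgeR adjusted p = 0.000416; 3 of 7 genes called against 2.55%). In cluster 4 it read 56.1, 75.8 and 69.9 CPM against 191, 153 and 141 CPM (log2 1.28, edgeR adjusted p = 5.08e-05; 2 of 7 against 1.56%). In the cycling cluster 10 it read 38.2, 65.9 and 57.6 CPM against 129, 155 and 107 CPM (log2 1.41, edgeR adjusted p = 0.000189; 2 of 7 against 3.88%). The Socs2 groups did not overlap in these clusters.

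Of the clusters tested, cluster 7 had the lowest Socs2 level, which read 8.40, 13.9 and 24.1 CPM (17, 12 and 12 UMIs) against 76.6, 84.6 and 66.6 CPM (6, 15 and 10 UMIs). This was the 1 gene of 7 called there, against 0.513% (log2 2.63, SE 0.46, edgeR adjusted p = 0.00551), and it did not pass without tdTomato-GFP- replicate 1 or 2 or tdTomato+GFP+ replicate 2. In cluster 8 Socs2 read 117, 80.4 and 97.3 CPM against 120.1, 173 and 265 CPM (log2 1.11, edgeR adjusted p = 0.0146; 1 of 7 against 0.730%), a call lost in 4 of the 6 fits without a replicate. In cluster 6, which carried Th1 markers, it read 78.4, 94.6 and 120.2 CPM against 194, 189.8 and 304 CPM (log2 1.30, edgeR adjusted p = 0.0350; 4 of 7 against 5.20%).

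Of these 6 clusters, Socs1 was lower in 3 and Socs3 in 2 by the same test. Socs1 read 185, 179 and 177 CPM against 109, 123.4 and 115 CPM in cluster 0 (log2 -0.61, edgeR adjusted p = 0.00179), and it was also lower in clusters 6 (-0.42, edgeR adjusted p = 0.0460) and 10 (-0.61, edgeR adjusted p = 0.0366, lost in 4 of the 6 fits without a replicate). Socs3 read 180.5, 183 and 177 CPM against 94.4, 87.9 and 109 CPM in cluster 4 (log2 -0.89, edgeR adjusted p = 0.000309), and it was lower in cluster 6 (-0.53, edgeR adjusted p = 0.00492). In cluster 0 Socs3 overlapped (281, 228 and 271 CPM against 256, 145 and 168 CPM; log2 -0.54, edgeR adjusted p = 0.188; with the replicate block -0.52, edgeR adjusted p = 0.00899).

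Il2ra rose in 1 of these 6 clusters. In cluster 6 it read 80.8, 73.3 and 80.7 CPM against 139.5, 123.2 and 96.5 CPM (log2 0.57, SE 0.14, edgeR adjusted p = 0.00772). All 4 calls of cluster 6 were lost without tdTomato-GFP- replicate 2 (edgeR adjusted p from 0.0623 to 0.130). In cluster 4 Il2ra read 84.8, 81.9 and 46.6 CPM against 139, 105 and 78.9 CPM (log2 0.48, edgeR adjusted p = 0.512; with the replicate block 0.59, edgeR adjusted p = 0.0301). Il2rb was lower in cluster 0 (342, 326 and 351 CPM against 297, 265 and 229.9 CPM; log2 -0.37, edgeR adjusted p = 0.0386), a call lost in 5 of the 6 fits without a replicate. Cluster 9 had too few tdTomato+GFP+ cells to be tested.

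**Figure D3:**
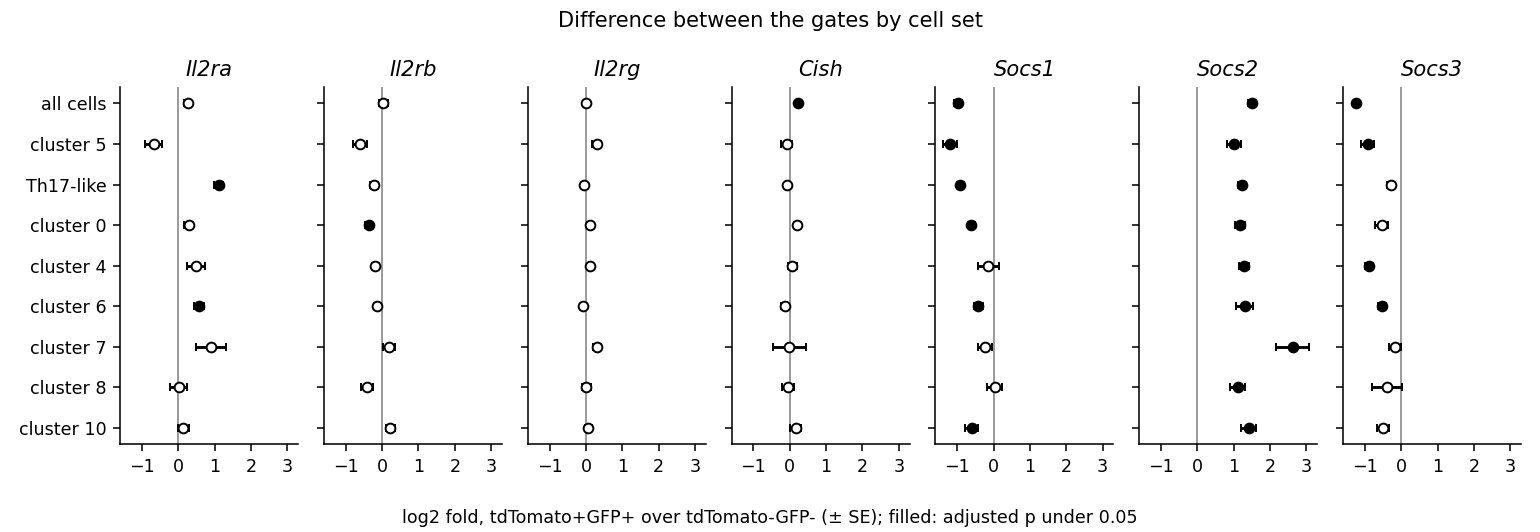
Log2 fold of the tdTomato+GFP+ over the tdTomato-GFP- gate (horizontal axis) with its SE for the 7 genes in all cells, cluster 5, Th17-like clusters and clusters 0, 4, 6, 7, 8 and 10; filled points have an edgeR adjusted p under 0.05. Socs2 lies right of 0 and is filled in all 9 sets, which share replicates and lanes. Il2ra lies right of 0 in Th17-like clusters (1.11) and left of it in cluster 5 (-0.68).

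Treg cells are defined by Foxp3, so the 7 genes were compared between cells with and without a Foxp3 UMI in the same replicate. A cell without a Foxp3 UMI may still express the gene. In the tdTomato-GFP- gate the Foxp3-detected cells had a much higher Il2ra level, and in the tdTomato+GFP+ gate they had a slightly higher one.

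In tdTomato-GFP- cells, 2194 with and 7915 without a Foxp3 UMI, 5 of the 7 genes were higher with Foxp3, against 23.3% of 10946 genes called. Il2ra read 194, 204 and 266 CPM with Foxp3 and 54.9, 61.1 and 47.5 CPM without, a 3.84-fold higher level (log2 1.94, SE 0.19, edgeR adjusted p = 0.00886). The call was lost without tdTomato-GFP- replicate 1, at a log2 fold of 2.05 (edgeR adjusted p = 0.153). Smaller differences were called for Socs2 (99.1 ± 9.26 against 68.2 ± 11.1 CPM, log2 0.53, edgeR adjusted p = 0.000391), Il2rb (444 ± 64.9 against 324 ± 19.8, log2 0.41, 0.000186), Cish (258 ± 17.4 against 198 ± 7.38, log2 0.34, 0.00108) and Il2rg (948 ± 15.1 against 795 ± 30.5, log2 0.22, 0.00595). Socs1 (157 and 163 CPM) and Socs3 (199.9 and 208 CPM) did not pass.

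Detected and undetected cells were spread differently over the clusters. With equal numbers of both per cluster and replicate, Il2ra stayed higher at a log2 fold of 1.10 (edgeR adjusted p = 3.16e-13), while Socs2 (0.24), Il2rb (0.20), Cish (0.05) and Il2rg (0.07) did not pass. Inside cluster 5 of the same gate Il2ra read 228, 310.1 and 399 CPM with a Foxp3 UMI and 179, 198 and 153 CPM without (log2 0.62, SE 0.14, edgeR adjusted p = 0.0139; 1 of 7 genes against 2.73%). Each replicate was higher with Foxp3, and the call was lost without replicate 3 (0.43, edgeR adjusted p = 0.0703), with DESeq2 (0.68, adjusted p = 0.104) and with no replicate block (0.74, edgeR adjusted p = 0.287). Outside cluster 5, pooled Il2ra levels with and without a Foxp3 UMI were 136 and 64.6 CPM in cluster 0, 148 and 60.8 in cluster 4, 158 and 42.4 in cluster 8, 188 and 48.8 in cluster 10, 170.1 and 17.6 in cluster 7 (61 and 778 cells) and 142 and 12.6 in cluster 9 (33 and 670 cells). Cluster 1 went the other way, at 26.2 and 37.6 CPM, with 7 detected cells.

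In tdTomato+GFP+ cells, 2946 with and 5819 without a Foxp3 UMI, 3 of the 7 genes were called against 3.05% of 10681. Il2ra read 139, 124 and 109.8 CPM with Foxp3 and 118, 92.3 and 88.6 CPM without. The groups overlapped across replicates while each replicate was higher with Foxp3 (log2 0.31, SE 0.05, edgeR adjusted p = 0.000542). Cish (277 ± 18.7 against 234 ± 15.5 CPM, log2 0.22, edgeR adjusted p = 0.00163) and Socs2 (237 ± 16.4 against 202 ± 18.5 CPM, log2 0.20, edgeR adjusted p = 0.00502) were also higher. With equal cells per cluster, Il2ra (0.25, edgeR adjusted p = 0.0133) and Cish (0.16, edgeR adjusted p = 0.0474) still passed and Socs2 (0.14, edgeR adjusted p = 0.149) did not. None of the 3 passed without the replicate as a block or with DESeq2. In Th17-like cells of this gate Il2ra averaged 130.0 ± 13.5 CPM with and 109.2 ± 18.6 CPM without a Foxp3 UMI (log2 0.26, SE 0.06, edgeR adjusted p = 0.0173; 1 of 7 against 1.28%). That call was lost in each of the 3 fits without a replicate, with DESeq2 and without the block. Depth moved with detection here, as median UMIs were 3866 with and 3536 without Foxp3, whereas in the tdTomato-GFP- gate they were 3659 and 3893; its part was not tested. Thinned to 2000 UMIs, cells with an Il2ra UMI made up 30.4% with and 8.43% without Foxp3 in the tdTomato-GFP- gate and 19.5% and 15.7% in the tdTomato+GFP+ gate, higher with Foxp3 in 6 of 6 replicates.

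The relation to Foxp3 detection differed between the gates for 4 of the 7 genes, against 15.1% of 11386 tested. For Il2ra the difference of the 2 log2 folds was -1.63 (SE 0.22, edgeR adjusted p = 0.0104), smaller in the tdTomato+GFP+ gate. The values were -0.31 (SE 0.09, edgeR adjusted p = 0.0257) for Socs2, -0.28 (SE 0.07, edgeR adjusted p = 0.00592) for Il2rb and -0.29 (SE 0.05, edgeR adjusted p = 0.000265) for Il2rg. For Il2rg the sign differed, at 0.22 in the tdTomato-GFP- gate and -0.08 (not past the threshold) in the tdTomato+GFP+ gate. Without tdTomato+GFP+ replicate 2 only Il2rg of the 4 was called, without tdTomato+GFP+ replicate 1 Il2ra did not pass (edgeR adjusted p = 0.0542), without tdTomato-GFP- replicate 1 or tdTomato+GFP+ replicate 3 Socs2 did not, and with DESeq2 Socs2 and Il2rb did not pass.

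Among Foxp3-detected cells alone, 5 of 7 genes differed between the gates, against 20.1% of 10178. The marker sums of these cells moved too, from 1115 ± 117 to 16396 ± 2623 CPM for Th17, from 5857 ± 358 to 3942 ± 375 for Treg and from 1872 ± 456 to 686 ± 99.2 for naive markers, and their part was not tested. Il2ra was 1.78-fold lower in the tdTomato+GFP+ gate (log2 -0.84, SE 0.14, edgeR adjusted p = 0.00359), the opposite sign to Th17-like cells. It did not pass with the replicate block (-0.82, edgeR adjusted p = 0.0744) or with equal cells per cluster (-0.28, edgeR adjusted p = 0.318). Socs2 was 2.39-fold higher (log2 1.25, SE 0.09, edgeR adjusted p = 1.54e-06), reading 101, 89.2 and 108 CPM against 232, 224 and 255 CPM, and it was called with equal cells per cluster too (1.04, edgeR adjusted p = 0.000248). Socs3 read 213, 194 and 192 CPM against 86.6, 88.9 and 95.3 CPM (log2 -1.16, edgeR adjusted p = 8.43e-07), and Socs1 had a log2 fold of -0.96 (edgeR adjusted p = 0.000533). With equal cells per cluster these 2 fell short (-0.41 and -0.39, edgeR adjusted p = 0.0929 and 0.136). Il2rg (-0.23, edgeR adjusted p = 0.0289) was lost in 5 of the 6 fits without a replicate, and Il2rb (-0.22, edgeR adjusted p = 0.317) passed only with the replicate block (0.0113).

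**Figure D4:**
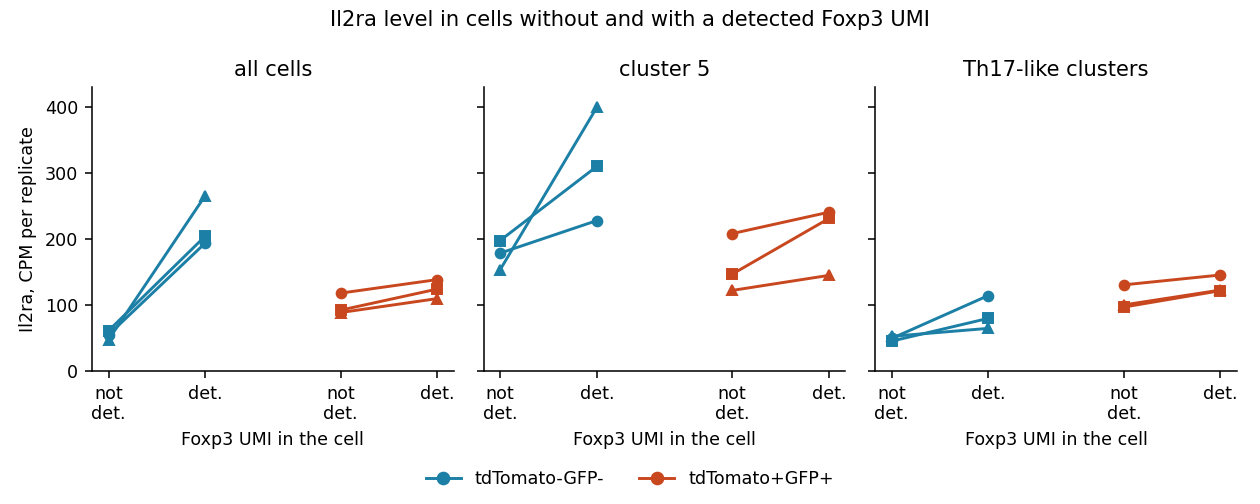
Il2ra level in CPM in cells without and with a Foxp3 UMI, in all cells, cluster 5 and Th17-like clusters; lines join the 2 values of a replicate, and marker shape gives the replicate number. The lines rise from 54.5 to 221 CPM on average in all tdTomato-GFP- cells and from 99.7 to 124 CPM in all tdTomato+GFP+ cells.

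A high-affinity receptor needs all 3 chains in 1 cell. UMIs of all 3 were found in 35.1% ± 2.29 of tdTomato-GFP- cells of cluster 5 and in 25.4% ± 15.0 of its few tdTomato+GFP+ cells. In Th17-like cells the share was 13.7% ± 0.904 in the tdTomato-GFP- gate and 21.2% ± 4.22 in the tdTomato+GFP+ gate. Cluster 9 of the tdTomato-GFP- gate, at a like depth and no clean floor for free RNA, gave 1.32% ± 0.721. Thinned to 2000 UMIs, these shares were 19.4%, 10.2%, 3.82%, 7.89% and 0.475% in the same order. Beta and gamma chains without the alpha chain were found in 58.1% of Th17-like tdTomato-GFP- cells and 40.4% of Th17-like tdTomato+GFP+ cells, unthinned. With a Foxp3 UMI the share with all 3 chains was 34.3% in the tdTomato-GFP- gate, against 10.8% without it, and 26.0% against 17.4% in the tdTomato+GFP+ gate. Thinned, these shares were 16.5% ± 1.61 and 3.56% ± 0.542, and 8.33% ± 1.55 and 6.44% ± 1.61, and the replicates of the second pair overlapped.

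Cells with an Il2ra UMI were also set against those without one, to see how the other 6 genes varied with it. In Th17-like tdTomato+GFP+ cells, Il2rb (log2 0.16, edgeR adjusted p = 0.00707), Il2rg (0.13, edgeR adjusted p = 0.00612), Cish (0.16, edgeR adjusted p = 0.0375) and Socs3 (0.27, edgeR adjusted p = 0.0480) were higher with Il2ra, 4 of 6 against 4.60% of 9889 genes. None of the 4 passed with DESeq2 or without the replicate block or without tdTomato+GFP+ replicate 2. Detected cells were deeper there, at a median of 4010 against 3358 UMIs, and its part was not tested. In Th17-like tdTomato-GFP- cells edgeR called none of the 6, with 9 of 6967 genes called (0.129%), 442 at an unadjusted p under 0.05, and none of the 6 by DESeq2. In cluster 5 of the tdTomato-GFP- gate Cish alone was called (log2 0.45, SE 0.08, edgeR adjusted p = 0.0338; 1 of 6 against 0.324%), and the call was lost without replicate 1 or 2 and with DESeq2.

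Levels by cluster are a description, since the clusters were made from these genes among others. Il2ra in the tdTomato-GFP- gate was highest in cluster 14 (352.5 ± 114 CPM; unnamed, at a median of 1064 UMIs) and cluster 5 (287 ± 68.6 CPM), which overlapped. A wide gap separated them from the next, cluster 10 at 79.4 ± 6.06 CPM, and from there neighbours lay close together down to cluster 7 (28.6), cluster 15 (17.7) and cluster 9 (17.1 ± 6.36). In the tdTomato+GFP+ gate no such gap was seen: cluster 13 stood at 188 CPM, cluster 5 at 178.0, cluster 2 at 124, cluster 6 at 119.7, cluster 1 at 119, and the order ran on without a break to cluster 10 at 86.4, with clusters 8 (68.3), 11 (60.1) and 7 (52.6) below it.

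Il2rb was highest in clusters 14 (587 CPM), 5 (525) and 1 (514) of the tdTomato-GFP- gate. It was lowest in the naive-like cluster 9 at 67.8 ± 2.74 CPM, below every replicate of the next cluster. In the tdTomato+GFP+ gate Il2rb ran from 442 CPM in clusters 12 and 2 to 189.9 in cluster 8. Il2rg ran from 1540 CPM in cluster 14 and 1043 in cluster 5 to 607 in cluster 7 of the tdTomato-GFP- gate. In the tdTomato+GFP+ gate cluster 5 was first at 1231 CPM, above every replicate of the next, cluster 4 (981).

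Cish and Socs2 shared their low end, and Socs1 and Socs3 their high end. Cish was 43.5 and 40.9 CPM in clusters 7 and 9 of the tdTomato-GFP- gate and 302, 299 and 294 CPM in clusters 6, 5 and 1. Socs2 was 15.5 and 7.86 CPM in clusters 7 and 9 and 126 CPM in cluster 3 of that gate, and it reached 276 CPM in cluster 13 and 251 CPM in cluster 3 of the tdTomato+GFP+ gate. Socs3 was highest in clusters 9 (368 ± 89.4 CPM), 7 (324 ± 42.1) and 0 (259.8 ± 28.3) of the tdTomato-GFP- gate, which overlapped, and lowest in clusters 1 (56.4) and 3 (40.5). In the tdTomato+GFP+ gate cluster 7 was again first at 280.4 CPM and cluster 3 last at 41.8. Socs1 led in clusters 7 (241 CPM) and 9 (203) of the tdTomato-GFP- gate and in cluster 7 (206) of the other, and was lowest in cluster 14 (87.1) of the first gate and cluster 12 (42.9) of the second.

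**Figure D5:**
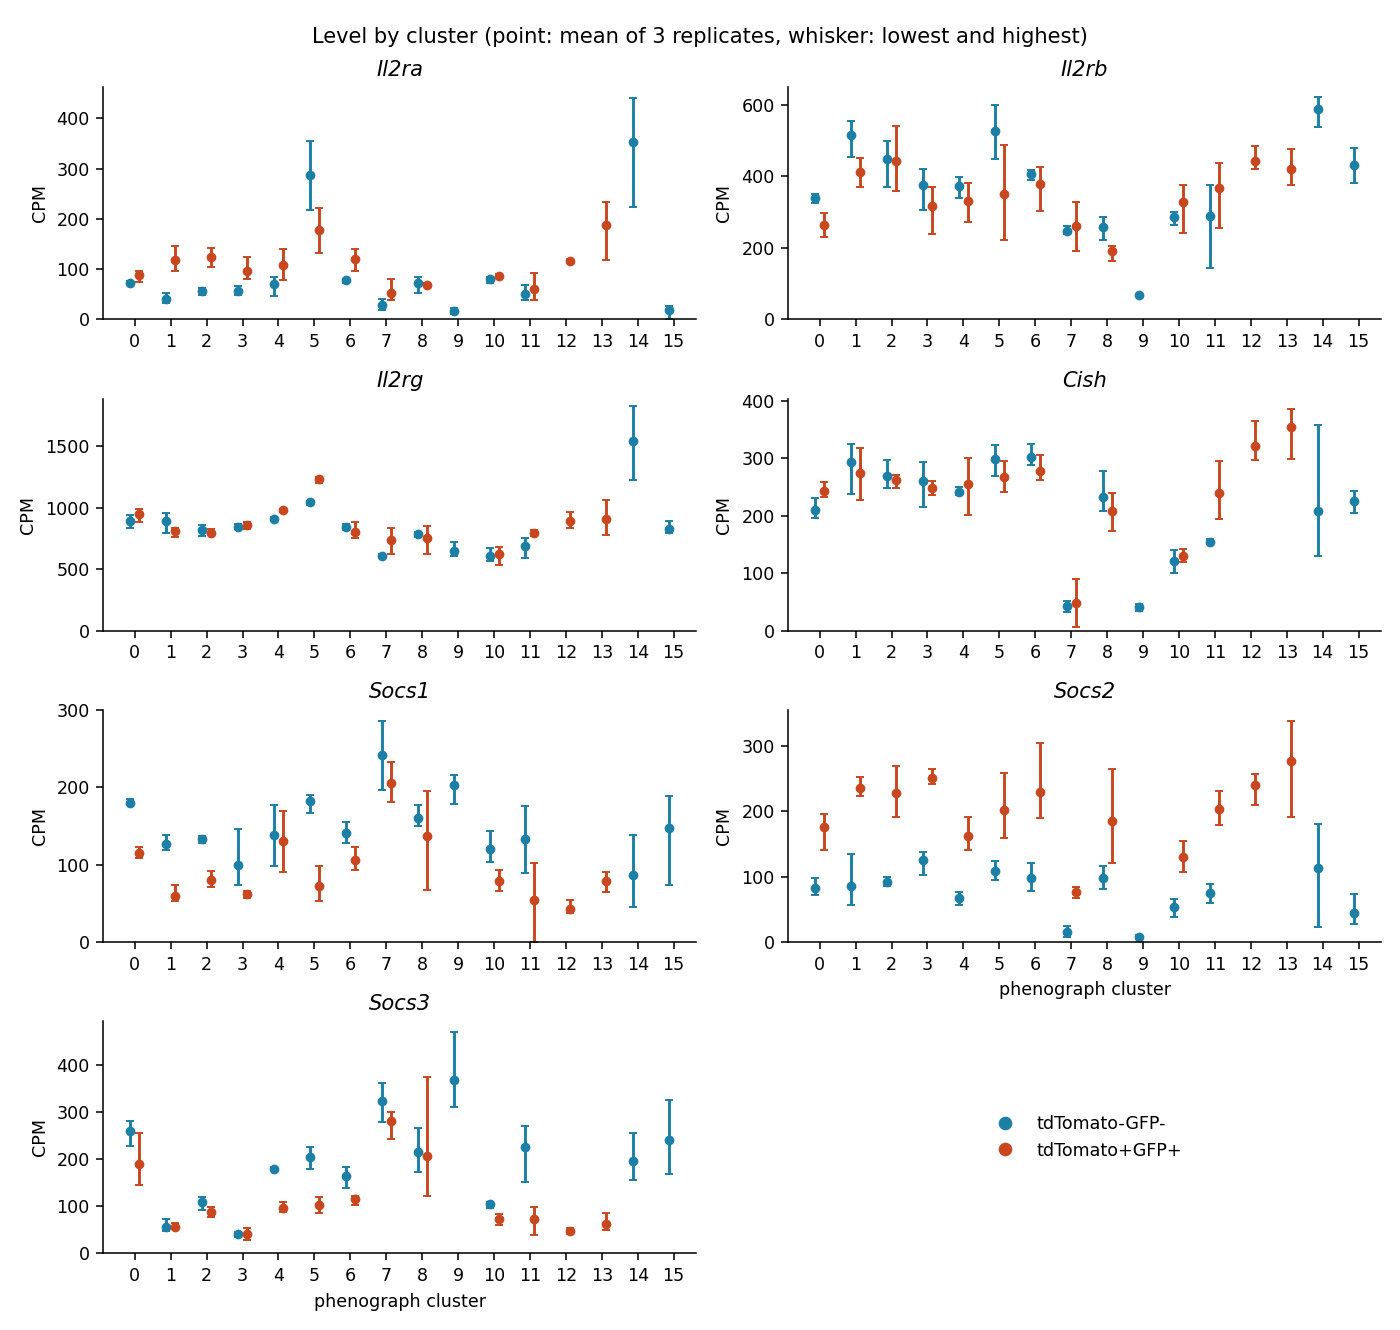
Mean level in CPM and its range over the 3 replicates for each of the 7 genes, by cluster and gate, for clusters with at least 20 cells in every replicate of that gate. Il2ra in the tdTomato-GFP- gate is high in clusters 14 and 5 (352.5 and 287 CPM) and at most 79.4 CPM elsewhere, whereas Socs3 is highest in clusters 9 and 7.

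Across 28 profiles of 1 cluster in 1 gate, Pearson correlations of log2(CPM + 10) give the same pattern as a description; the profiles share lanes and replicates. Socs1 went with Socs3 (r = 0.764), and both went against Socs2 (r = -0.714 and -0.684). Il2ra went with Il2rg (r = 0.712) and Socs2 (r = 0.687), and Cish with Socs2 (r = 0.712) and against Socs3 (r = -0.590). The 3 genes most like each member, out of 6148 with a mean of at least 20 CPM, were Itgav, Myo1e and Wls for Il2ra (r from 0.867 to 0.890), Rora, Osbpl3 and Atp2b4 for Il2rb (0.883 to 0.891) and Zbtb25, Sntb1 and Rcsd1 for Il2rg (0.893 to 0.901). They were Prr7, Padi2 and Id2 for Cish (0.911 to 0.926), Tmem243, Siah2 and Sept6 for Socs1 (0.849 to 0.872), Rcbtb2, Cst3 and Ccrl2 for Socs2 (0.878 to 0.895), and Dgka, Sp110 and Gimap6 for Socs3 (0.890 to 0.911).

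Other genes of these pathways were read from 5 lists over all cells, where 26.4% of all genes were called (1550 up and 1603 down). Of 9 common gamma chain partners and cytokines tested, 2 fell in the tdTomato+GFP+ gate and none rose (median log2 fold -0.31; all genes 0.00), a share called near that of all genes. They were Il7r, the interleukin-7 receptor alpha chain (381 ± 28.7 to 259 ± 11.995 CPM, log2 -0.57, edgeR adjusted p = 0.000812), and Il21r (log2 -0.31, edgeR adjusted p = 0.0284). Of 11 JAK and STAT genes 5 fell and none rose (median -0.14), among them Stat5b (119.6 ± 6.64 to 89.4 ± 1.66 CPM, log2 -0.43, edgeR adjusted p = 0.000728), Stat5a (-0.40, 0.0326) and Stat6 (-0.35, 0.00603). Of 17 other SOCS and feedback genes 2 rose and 4 fell (median -0.12): Asb2, a SOCS box ubiquitin ligase subunit, rose (log2 0.83, edgeR adjusted p = 0.000958), as did Pias3 (0.47), and the tyrosine phosphatases Ptprc (-0.59) and Ptpn6 (-0.34) and the adaptor Sh2b3 (-0.95) fell.

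Of 25 interleukin-2 and STAT5 target genes 4 rose and 9 fell (median -0.14), beside 26.4% of all genes called (1550 up and 1603 down). Ctla4 (log2 0.92, edgeR adjusted p = 0.00271), Nfil3 (0.77) and Ahr (0.70) rose, and Prf1 (-2.62), Tnfrsf9 (-1.52) and Bcl2 (-0.9998) fell. Prf1 was low in both gates, at 6.43 ± 0.879 CPM in the tdTomato-GFP- gate and 1.05 ± 0.844 CPM in the tdTomato+GFP+ gate. Of 12 genes of the STAT3 and interleukin-6 side 4 rose and 2 fell (median 0.01). Among them Il17a (2.64) and Il12rb1 (0.49) rose, while Il6st, the gp130 chain that Socs3 binds, fell (46.6 ± 8.53 to 14.1 ± 1.54 CPM, log2 -1.76, edgeR adjusted p = 0.000159), as did Il6ra (-1.41).

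Within Th17-like cells, where 11.2% of all genes were called, 1 rose of 8 gamma chain partners, 2 rose and 1 fell of 11 JAK and STAT genes, 1 fell of 17 feedback genes, 1 rose and 4 fell of 24 STAT5 targets, and 3 rose and 4 fell of 12 on the STAT3 side. Ctla4 (0.28, edgeR adjusted p = 0.0117), Il6ra (1.44, edgeR adjusted p = 0.0269) and Il17a (0.34, edgeR adjusted p = 4.71e-05) rose and Ptpn6 (-0.33, edgeR adjusted p = 0.0233) fell there. Prf1 was not tested there, and the other list genes named over all cells did not pass. Among those were Il6st (-0.13, edgeR adjusted p = 0.805), Stat5b (-0.13, edgeR adjusted p = 0.334) and Asb2 (0.26, edgeR adjusted p = 0.320). In cluster 5, where 3.71% of all genes were called, 1 rose and 2 fell of 6 partners, 1 rose and 1 fell of 11 JAK and STAT genes, 1 fell of 14 feedback genes, 2 rose and 3 fell of 20 STAT5 targets, and 1 rose and 2 fell of 9 on the STAT3 side. Il21r (-1.16, edgeR adjusted p = 0.00199), Stat5b (-0.75, edgeR adjusted p = 0.0379) and Il6st (-2.02, edgeR adjusted p = 0.0415) fell there, and Il17a rose (3.401, edgeR adjusted p = 0.00773). Cells with and without a Foxp3 UMI of the tdTomato-GFP- gate were compared too, where 23.3% of all genes were called (1340 up and 1213 down). With Foxp3, 7 of 11 JAK and STAT genes and 11 of 25 STAT5 targets were higher, and 0 and 6 were lower. Of 9 gamma chain partners 2 were higher and 4 lower (median log2 fold -0.56). Of 17 feedback genes 2 were higher and 2 lower, and of 12 on the STAT3 side 5 were higher and 5 lower.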

How the data were processed

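CD4 T cells of 2 sorted gates were profiled with 3 hashed replicates each. Per the labels' protocols, colons were digested, lamina propria cells sorted, hashed with TotalSeq-C reagents and run on 1 lane per gate. The deposited counts are whole UMI numbers per cell and gene, and the deposited fraction is a cell's main hashtag share (at least 0.8 among assigned cells). The builds mm10 and GRCm38, Scanpy 1.7.2 and Cell Ranger are named in the submitters' processing notes; filters and clustering settings are not given in the sources used here. Clusters are the authors', and were named from marker lists. Cluster 5 is kept by number, because its mix differed between gates.

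The 7 members and all lists were chosen with earlier results of these data known. The 3 hashtag features, 43.8% of UMIs, were left out of totals. The 4721 cells without a replicate were left out, as were 216 without a cluster from results by cluster; no doublet caller was run. UMIs were summed per replicate and cell set of at least 20 cells and tested over all genes with edgeR 4.0.16 in R 4.3.3 (glmQLFit, robust; glmQLFTest; TMM; filterByExpr, minimum count 10; two-sided; Benjamini-Hochberg, threshold 0.05). Splits by Foxp3 or Il2ra detection carried the replicate as a block. Levels in CPM use total UMIs without hashtags. Shares were computed in Python 3.11.15 (numpy 2.4.6, scipy 1.17.1, pandas 2.3.3) after thinning cells to 2000 UMIs. UMI totals limit precision by counting error and by the spread of 3 replicates. The test was run on data simulated with a fixed dispersion for all genes and no replicate effect. That check does not cover the spread or pairing of these replicates.

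Deviations of samples with the same replicate number correlated across gates (r = 0.272, 0.186 and 0.224, others -0.233 to 0.0552), so the numbers were taken to pair samples by the data, with no label giving the source. That pairing rests on 3 pairs only. The reported fits of 1 gate against the other did not carry it as a block. Alternatives were the replicate block, RLE factors, no filter, DESeq2 1.42.0, each replicate left out, hashtag shares of at least 0.95 or 0.9, equal cells per cluster, 1 cell per clonotype, and other thinning depths; leaving out barcodes found in both lanes was added after seeing the data. Genes named beside the 7 are Foxp3 and Il17a, at most 3 per list and direction with the largest folds among genes called over all cells without overlap of replicates, and the 3 most correlated genes per member. A gene that this rule names is not reported here.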

Additional observations from a re-analysis of the deposited data

Results flagged for a closer look

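Gate differences of Il2ra had opposite signs in 2 sets of cells of the same replicates: higher in the tdTomato+GFP+ gate in Th17-like clusters (log2 1.11, called) and at a log2 fold of -0.68 in cluster 5, which did not pass by itself (edgeR adjusted p = 0.140) and whose groups overlapped. The test of the difference of effects did pass, with a log2 value of -1.697 (edgeR, adjusted p = 1.29e-06).

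The relation of 4 genes to Foxp3 detection differed between the gates when tested as a difference of effects with edgeR. The log2 fold with Foxp3 was lower in tdTomato+GFP+ cells by values of -1.63359 for Il2ra (adjusted p = 0.0104), -0.313684 for Socs2 (0.0257), -0.284518 for Il2rb (0.00592) and -0.293495 for Il2rg (0.000265). Only the Il2rg call was kept without tdTomato+GFP+ replicate 2, and those of Socs2 and Il2rb were lost with DESeq2.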

How the results depend on the processing

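Of 48 calls on the 7 genes, 48 were kept with RLE factors, 46 with no filter on low counts, 46 without barcodes found in both lanes (chosen after seeing the data), 29 of the 47 with a value with DESeq2, and 24 of 29 and 12 of 13 at hashtag shares of at least 0.9 and 0.95. Of 1411 values under all alternatives 66 changed sign, of which 1 had been past the threshold: Cish over all cells, from 0.231 to -0.0396 with equal cells per cluster. Few tdTomato+GFP+ cells limit cluster 5, and single UMIs limit cluster 7. Not run for too few cells were cluster 9, the Foxp3 split of Th17-like tdTomato-GFP- cells, both splits of tdTomato+GFP+ cells in cluster 5, 1 cell per clonotype in cluster 5, and hashtag shares in clusters 5, 7 and 8 and in the test between cluster 5 and Th17-like clusters.

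Counts of the 7 genes called moved as follows. Equal cells per cluster gave 1 over all cells (main 4), 1 of Foxp3-detected cells between gates (5) and 1 for the tdTomato-GFP- Foxp3 split (5). The replicate block, by which the numbers pair samples, gave 5 in cluster 5 (3) and 5 in Th17-like clusters (3), and no filter gave 5 in cluster 5. DESeq2 gave 1 in cluster 6 (4), 1 in cluster 10 (2) and 2 for the relation to Foxp3 between gates (4), and no filter gave 2 for cluster 5 against Th17-like clusters (1). DESeq2 and fits with no replicate block both gave 0 for the Foxp3 and Il2ra splits of cluster 5 (1 each), and for the tdTomato+GFP+ Foxp3 split (3), the same in Th17-like clusters (1) and the Il2ra split there (4). For the last 2, a hashtag share of 0.9 gave 0 and 2, and no filter gave 2 for the first. Leaving out 1 replicate gave 3 to 5 over all cells, 1 to 4 in cluster 5, 3 to 4 in Th17-like clusters, 2 to 4 in cluster 0, 0 to 4 in cluster 6, 0 to 1 in cluster 7, 0 to 2 in cluster 8, 1 to 3 in cluster 10, 1 to 2 for cluster 5 against Th17-like clusters, 0 to 1 for each split of cluster 5, 0 to 0 for the Foxp3 split and 0 to 4 for the Il2ra split of Th17-like tdTomato+GFP+ cells, and 1 to 4 for the relation to Foxp3.

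Counts over all genes moved by over 1.5 times too. Over all cells, 3153 became 1434 at a hashtag share of 0.95, 294 with equal cells and 1532 with 1 cell per clonotype; in Th17-like clusters, 1129 became 425, 1726 with the block and 373 per clonotype. Without a filter, cluster 5 went from 241 to 495, cluster 0 from 231 to 571, cluster 4 from 119 to 322, cluster 7 from 26 to 83, cluster 8 from 48 to 154 and cluster 10 from 285 to 504. The block gave 363, 226, 55 and 94 in clusters 0, 4, 7 and 8. DESeq2 gave 213 in cluster 6 (418), 124 in cluster 10, 221 for cluster 5 against Th17-like clusters (389), 1322 for the tdTomato-GFP- Foxp3 split (2553), 101 for the tdTomato+GFP+ one (326) and 705 for the relation (1715). Equal cells gave 374 of Foxp3-detected cells between gates (2047), and 1164 and 140 for the 2 Foxp3 splits. The cause was not tested.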

Other observations

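Cells without a hashed replicate, 2217 in the tdTomato-GFP- lane and 2504 in the tdTomato+GFP+ lane, were in no comparison. They were deeper, at medians of 7103 and 7675.5 UMIs. Pooled by lane, with no replicates and no test, Socs2 stood at 75.0 and 221.8 CPM, Socs1 at 160 and 76.5, Socs3 at 191 and 81.4, Cish at 200.1 and 231, Il2ra at 93.7 and 108, Il2rb at 337 and 314 and Il2rg at 788 and 771.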
